A study of Homo sapiens with 108 samples.

Results

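The clustered histone genes encode the histone proteins around which newly made DNA is wrapped, and most of them lie side by side on human chromosome 6. They were chosen here by name. A gene entered when its array probe set was annotated with that symbol alone and the symbol was one of the H1, H2A, H2B, H3 or H4 cluster series (H1-2, H2AC6, H2BC12 and the like). This gave 45 of the 19775 genes on the array, with 9 linker histone H1 genes, 8 H2A, 13 H2B, 7 H3 and 8 H4 genes. In the RefSeq annotation of GRCh38.p14, 40 of them lay in the chromosome 6 cluster. H2BC21 and H2AC25 lay in separate clusters on chromosome 1. H1-7 on chromosome 12 and H1-8 and H1-10 on chromosome 3 matched the naming rule but lie outside any cluster. A further 20 probe sets that named several genes, at least 1 of them matching the rule, were not used.

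RNA had been profiled on arrays in 4 human non-Hodgkin lymphoma cell lines treated with EPZ6438, an inhibitor of EZH2. EZH2 is the enzyme of the PRC2 complex that methylates histone H3 at repressed genes. Per the series description, a mutation of EZH2 at Y641 is present in Karpas422, SU-DHL6 and WSU-DLCL2, called the Y641 lines here, and absent from Pfeiffer. In each line DMSO, LCC of EPZ6438 and 10xLCC of EPZ6438 were compared, with total RNA from day 2, day 4 and day 6. Each of the 36 groups held 3 arrays, lettered A to C. What concentration LCC stands for is not stated in these sources, and whether it was equal across lines is unknown. Nothing in the labels says whether the lettered samples were separate cultures, so p-values measure only the spread between these samples, which may be technical. In bulk RNA of this kind, fewer cells that transcribe a gene and less of its RNA per cell cannot be told apart.

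Of the 8 B cell markers on the array, all 8 had a mean log2 intensity of at least 8 in the 3 Y641 lines and 7 did in Pfeiffer, where BLK stood at 7.73. Pfeiffer also showed CD8A at 13.35 and EPCAM at 11.81, each the highest of its marker list. Of the 7 T cell markers, 2 reached log2 8 in Pfeiffer, with a median of 6.85 and CD3G lowest at 5.08. Of the 8 epithelial and stromal markers 2 did, with a median of 7.17 and CDH1 lowest at 5.14. As a measure of how intact the copied RNA was, ACTB signal at its 3′ end over that at its 5′ end (log2) lay between -0.21 and 0.44 on every array except those of Karpas422 at day 6, where it ran from 1.02 to 3.56. The array farthest from its own group was Pfeiffer LCC day 6 replicate B, at a root mean square distance of 0.70 over genes (log2).

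Most clustered histone genes are transcribed in S phase, when the cell copies its DNA. Their short mRNAs have no introns and end in a stem-loop rather than a poly(A) tail, and the proteins NPAT and SLBP serve their transcription and processing. Some of them, including H1-2, H2AC6, H2BC4, H2BC5, H2BC12 and H2BC21, are also known to give polyadenylated mRNA, for example in cells that leave the cycle. The primer used to copy the RNA is not stated in these sources. Because histone genes of one class are nearly identical in sequence, a probe set can also detect RNA of a neighbour. Of the 45 probe sets used, 4 ended in _s_at, those of H1-10, H2AC6, H2BC21 and H3C2. Another 6 ended in _x_at, those of H2AC14, H2BC5, H2BC6, H2BC9, H3C8 and H4C11. These suffixes mark probes shared between transcripts, and values of these genes are uncertain in that respect.

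The start regions of 5 members are printed because the results turn on them. H2AC6, H2BC12 and H2BC21 gained signal in all 3 Y641 lines at day 6, and H3C2 lost signal. H4C8, with none of the motifs searched, gained signal in Karpas422 and SU-DHL6. Its gain in WSU-DLCL2, of 0.35, was not seen with its second probe set, which gave -0.20. The sequences are from RefSeq on GRCh38.p14, run from 250 bases before to 50 bases after the start, and are written 5′ to 3′ along the gene. Capitals mark the octamer ATTTGCAT, the letters CCAAT, and TATAAA, each searched on both strands. None of the 3 contains another.
H2AC6: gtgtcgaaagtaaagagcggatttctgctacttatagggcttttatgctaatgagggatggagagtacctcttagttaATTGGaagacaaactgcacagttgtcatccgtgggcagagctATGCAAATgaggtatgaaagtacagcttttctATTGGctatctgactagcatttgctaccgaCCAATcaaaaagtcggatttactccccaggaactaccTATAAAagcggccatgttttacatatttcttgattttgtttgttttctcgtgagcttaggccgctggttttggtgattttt
H2BC12: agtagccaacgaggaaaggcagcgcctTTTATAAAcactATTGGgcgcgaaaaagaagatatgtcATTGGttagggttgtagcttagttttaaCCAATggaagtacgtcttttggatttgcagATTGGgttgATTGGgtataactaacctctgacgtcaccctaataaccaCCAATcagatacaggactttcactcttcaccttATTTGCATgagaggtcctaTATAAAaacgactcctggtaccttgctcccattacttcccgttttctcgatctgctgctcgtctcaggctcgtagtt
H2BC21: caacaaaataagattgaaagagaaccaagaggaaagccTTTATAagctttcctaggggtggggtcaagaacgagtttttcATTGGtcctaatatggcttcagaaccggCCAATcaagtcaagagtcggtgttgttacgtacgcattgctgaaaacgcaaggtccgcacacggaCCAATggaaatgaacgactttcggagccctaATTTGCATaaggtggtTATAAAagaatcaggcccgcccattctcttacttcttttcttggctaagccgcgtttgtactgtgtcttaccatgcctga
H4C8: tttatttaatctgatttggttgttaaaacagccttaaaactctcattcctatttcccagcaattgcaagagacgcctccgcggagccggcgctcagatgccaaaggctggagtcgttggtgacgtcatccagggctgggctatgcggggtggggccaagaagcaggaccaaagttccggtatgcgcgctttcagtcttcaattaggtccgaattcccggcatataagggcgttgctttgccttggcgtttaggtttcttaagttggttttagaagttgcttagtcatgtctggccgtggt
H3C2: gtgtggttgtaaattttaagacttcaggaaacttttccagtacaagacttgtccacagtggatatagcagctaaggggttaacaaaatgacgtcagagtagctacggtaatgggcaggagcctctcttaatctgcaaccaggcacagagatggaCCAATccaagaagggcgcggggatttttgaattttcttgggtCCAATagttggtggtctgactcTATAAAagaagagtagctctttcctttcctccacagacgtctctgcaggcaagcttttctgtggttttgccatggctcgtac
Their positions are chr6:26123922-26124221 on the plus strand for H2AC6, chr6:27146809-27147108 for H2BC12, chr1:149886633-149886932 for H2BC21, chr6:26285485-26285784 for H4C8 and chr6:26032050-26032349 for H3C2, the last 4 on the minus strand. The H2AC6 window also holds the start of H2BC4, which is transcribed the other way from a start 246 bases off.

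At day 6 of 10xLCC the clustered histone genes changed in both directions, and the balance differed by line. A change is a log2 difference from the DMSO group of the same line and day, and a gene rose or fell when its limma p-value, adjusted over all genes of the line, was below 0.05. In Karpas422, 15 of 45 members rose and 1 fell, against 18.4% and 19.2% of all genes tested. For SU-DHL6 the counts were 13 and 11 of 45, against 19.8% and 26.7%. WSU-DLCL2 had 5 risen and 10 fallen of the 44 members tested, against 17% and 19.2%, and H2BC17 was too dim there to test. In Pfeiffer 1 member, H2BC21, rose and 0 fell, where 0.164% and 0.0581% of all genes rose and fell. Without Pfeiffer LCC day 6 replicate B, 5 members rose there, beside 1.8% of all genes risen and 0.583% fallen. Centring on bright genes gave 4 risen, beside 1.6% and 0.738%. The members' median change was 0.04 in Karpas422, -0.10 in SU-DHL6, -0.10 in WSU-DLCL2 and 0.05 in Pfeiffer, beside medians over all genes of -0.03, -0.11, 0.02 and 0.02. Called in either direction were 35.6% of members in Karpas422, 53.3% in SU-DHL6 and 34.1% in WSU-DLCL2, near the 37.6%, 46.5% and 36.1% of all genes. Over all genes of Karpas422, 3465 rose and 3629 fell, beside the 15 and 1 of the members.

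Scaling bears on the fallen genes. With each array centred on its bright genes, 8 members rose and 7 fell of 45 tested in WSU-DLCL2, against 28.6% and 13.8% of all genes, whose median moved to 0.17. In SU-DHL6 the counts were 13 and 4, against 28% and 15.6%, with that median at 0.05. Karpas422 gave 19 and 1, against 33.5% and 12.4%, with it at 0.20. The ACTB ratio also moved with dose at day 6, from 1.25 ± 0.22 in DMSO to 2.25 ± 0.51 in 10xLCC in Karpas422 and from -0.18 ± 0.03 to 0.34 ± 0.13 in SU-DHL6 (SD, n = 3). With that ratio in the model, 15 members rose and 1 fell in Karpas422, against 18.5% and 17.8% of all genes, whereas 5 rose and 0 fell in SU-DHL6, against 5.95% and 2.92%. Among the SU-DHL6 calls lost that way were those of H1-2, H2AC8, H2AC15, H2BC4, H2BC5, H2BC9, H2BC21, H3C2, H3C11 and H4C11. At day 6 that ratio ran from -0.2 to -0.15 in DMSO and from 0.19 to 0.44 in 10xLCC there, so it went together with dose. The SE of the H2AC6 change rose from 0.13 to 0.27. For a call lost that way, a change tied to the ratio and a loss of precision cannot be told apart. With the filter on dim genes raised to log2 6, the 15 called members of WSU-DLCL2 became 4 risen and 4 fallen of 24 tested, against 21.7% and 25.5%. At day 4 the ratio stayed between -0.14 and 0.24 in the Y641 lines.

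Fewer members were called at day 4 than at day 6 in each Y641 line. In Karpas422, 13 members rose and 0 fell, against 10.8% and 15.2% of all genes. An unadjusted p below 0.05 was found there for 19 of 45 members, beside 6625 of 18873 genes. In SU-DHL6, 10 rose and H2BC14 alone fell, against 10.3% and 9.64%. That fall had an adjusted p of 0.049, and it was lost on centring (0.072) and without SU-DHL6 DMSO day 4 replicate B (0.18). Of the 44 members tested in WSU-DLCL2, 2 rose and 7 fell, against 18.9% and 14.7%, or 2 and 4 with centring on bright genes, against 23.4% and 13%. The 9 calls became 2 and 3 of 24 tested with the filter at log2 6, against 24.5% and 19.2%. Pfeiffer had 0 called by limma, against 0.0687% of all genes called either way. There 6 of 45 members had an unadjusted p below 0.05, beside 1483 of 18935 genes. Without Pfeiffer LCC day 6 replicate B, 3 rose, beside 2.08% of all genes risen. Of the 44 members tested in every line, 12 rose in at least 2 lines at day 6, or 27.3% beside 16.2% of the 18687 genes tested in every line. In at least 3 lines 5 rose, or 11.4% beside 6.46%, namely H2AC6, H2BC9, H2BC12, H2BC21 and H4C8. The H4C8 rise in WSU-DLCL2, of 0.35, was not seen with its second probe set, which gave -0.20. H1-5, H2AC16, H3C2, H3C11 and H4C11 fell in at least 2 lines, 11.4% beside 17.9%, and H3C11 in 3, or 2.27% beside 8.6%.

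**Figure D1:**
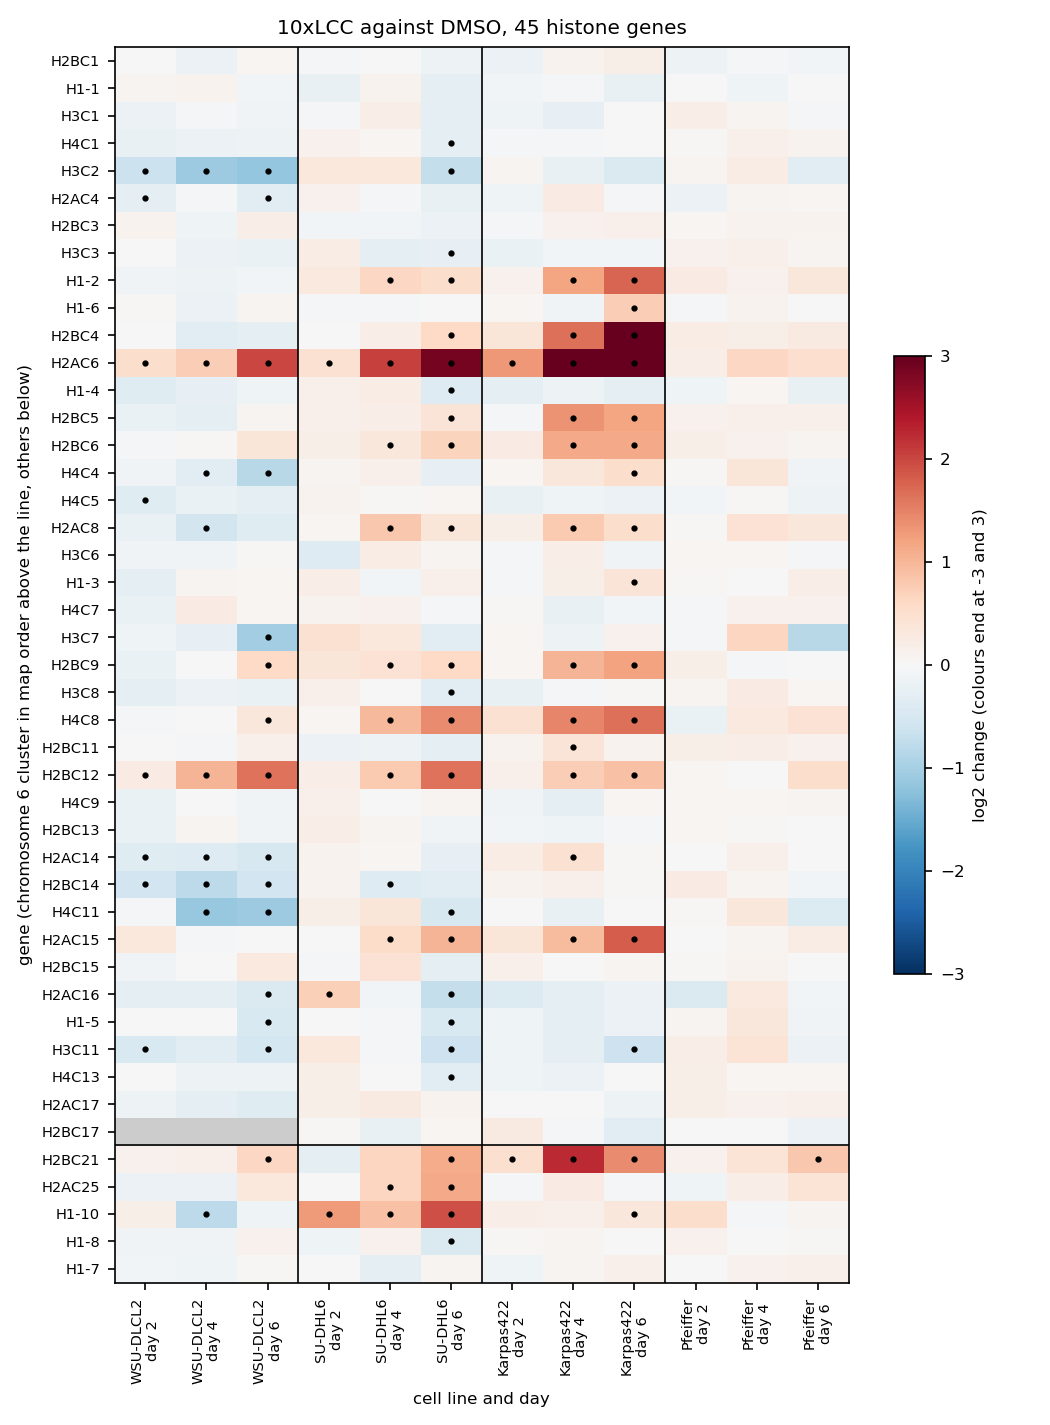
Log2 change of each of the 45 members at 10xLCC against DMSO, by cell line and day (columns), with chromosome 6 genes in map order above the line and the other members below it; dots mark limma adjusted p under 0.05 and grey marks a gene not tested. H2AC6 is red in all 3 Y641 lines, H3C2 and H4C11 are blue in WSU-DLCL2 at days 4 and 6, and Pfeiffer has 1 dot, for H2BC21.

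H2AC6, an H2A gene, had the largest rise of any member in Karpas422, SU-DHL6 and WSU-DLCL2 at day 6. Its gene model spans chr6:26124172-26124690, and its only probe set ends in _s_at, so RNA of other histone genes may add to its signal. In Karpas422 the 3 DMSO arrays of day 6 read 5.40, 4.88 and 5.85 (log2 intensity), the LCC arrays 8.27, 7.79 and 7.71, and the 10xLCC arrays 10.19, 9.62 and 10.03. The 3 doses did not overlap, and the 10xLCC mean stood 4.57 ± 0.20 above DMSO (log2, SE; adjusted p = 1.3e-15), a 23.7-fold difference. In SU-DHL6 the DMSO arrays read 6.84, 6.45 and 6.47 and the 10xLCC arrays 9.27, 9.68 and 9.41, a change of 2.87 ± 0.13 (adjusted p = 4.2e-15), or 7.31-fold. In WSU-DLCL2 the values were 6.34, 6.36 and 5.85 against 8.37, 7.69 and 8.47, a change of 1.99 ± 0.17 (adjusted p = 5.9e-10), or 3.98-fold. Treated and control arrays lay apart in each of these lines. Pfeiffer began higher, at 8.06, 8.11 and 8.18 in DMSO, and read 8.58, 8.77 and 8.52 at 10xLCC, a difference of 0.51 ± 0.17 that missed the threshold (adjusted p = 0.46). Without Pfeiffer LCC day 6 replicate B, the same difference had an adjusted p of 0.0045.

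At day 2 of 10xLCC few members were called, with 2 risen and 6 fallen in WSU-DLCL2 (11.1% and 14.3% of all genes), 3 and 0 in SU-DHL6 (7.86% and 0.783%) and 2 and 0 in Karpas422 (4.65% and 1.95%). In Pfeiffer limma called 0 members, where 0.00528% of all genes were called. There 1 of 45 members had an unadjusted p below 0.05, beside 708 of 18935 genes. SU-DHL6 DMSO day 2 replicate A stood apart from its group, at a distance of 0.47, and without it 2 members rose in that line, H1-10 and H2AC16, against 4.69%. H2AC6 was the 1 member that rose in all 3 Y641 lines at day 2 with every array in the fit, by 1.29 ± 0.20 in Karpas422, 0.45 ± 0.13 in SU-DHL6 and 0.52 ± 0.17 in WSU-DLCL2 (SE; adjusted p 9.1e-05, 0.027 and 0.025). Without SU-DHL6 DMSO day 2 replicate A its SU-DHL6 change was 0.44 and not called (adjusted p = 0.089). By day 4 it had risen by 3.85 ± 0.20, 2.05 ± 0.13 and 0.74 ± 0.17. With the ACTB ratio in the model the day 6 changes were 4.88, 3.44 and 2.04. In the DMSO arrays of Karpas422 it fell by 0.54 ± 0.20 between days 2 and 6 (adjusted p = 0.046).

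H2BC4, an H2B gene, is the partner of H2AC6 on the other strand (chr6:26113170-26123926), and its largest rise was in Karpas422. In Karpas422 at day 6 it read 4.82, 5.04 and 4.85 in DMSO, 5.98, 6.42 and 6.68 at LCC and 7.74, 7.99 and 7.92 at 10xLCC, with no overlap between doses. That was a rise of 2.98 ± 0.15 (adjusted p = 1.6e-14), after 1.65 ± 0.15 at day 4. In SU-DHL6 it rose by 0.60 ± 0.13 at day 6, from 4.73, 4.85 and 4.77 to 5.44, 5.19 and 5.52 (adjusted p = 0.00027), and this call was lost with the ACTB ratio in the model (adjusted p = 0.57). The WSU-DLCL2 difference was -0.30 ± 0.14 at day 6 at 10xLCC (adjusted p = 0.11), while H2AC6 rose there. Of the 3 other head-to-head pairs among the members, H2AC15 rose in Karpas422 by 1.81 at day 6 beside 0.09 for H2BC15, whose adjusted p was 0.62. H2AC14 and H2BC14 both fell in WSU-DLCL2, by 0.47 and 0.58 at day 6, the first call being lost on centring (adjusted p = 0.096). At 10xLCC against DMSO, H2AC17 was not called in any line on any day, and H2BC17 in none of the 3 lines where it was tested.

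H2BC12, an H2B gene at chr6:27138293-27146858, rose in every Y641 line from a bright start. In WSU-DLCL2 at day 6 it read 9.52, 9.54 and 9.29 in DMSO, 10.11, 10.25 and 10.18 at LCC and 11.15, 11.04 and 11.05 at 10xLCC. SU-DHL6 gave nearly the same numbers, with 9.52, 9.37 and 9.53 in DMSO and 11.16, 11.18 and 11 at 10xLCC. The changes were 1.63 ± 0.08 and 1.64 ± 0.09 (adjusted p = 4.3e-14 and 1.2e-13), or 3.1-fold and 3.11-fold. Karpas422 started at 11.96, 11.82 and 11.85 and reached 12.90, 12.65 and 12.74, a rise of 0.89 ± 0.14 (adjusted p = 9.3e-06). Doses were separate in the first line and DMSO and 10xLCC were separate in all 3. In Pfeiffer DMSO read 10.54, 10.78 and 10.77 and 10xLCC 11.14, 11.29 and 11.26, a difference of 0.53 ± 0.12 (adjusted p = 0.058), which passed when Pfeiffer LCC day 6 replicate B was left out (adjusted p = 0.00015).

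H2BC21, an H2B gene at chr1:149884459-149886682, was the member that rose in all 4 lines at day 6. In Karpas422 it rose by 2.25 ± 0.11 at day 4, from 4.41, 4.48 and 4.31 to 6.70, 6.74 and 6.51 (adjusted p = 3.8e-14), and by 1.43 ± 0.11 at day 6. The SU-DHL6 rise was 1.11 ± 0.23 at day 6, from 4.72, 5.07 and 4.95 to 6.20, 5.95 and 5.91 (adjusted p = 0.00033), although with the ACTB ratio in the model its adjusted p was 0.43. That of WSU-DLCL2 was 0.63 ± 0.12 (adjusted p = 0.00014). In Pfeiffer the DMSO arrays read 5.27, 5.06 and 5.08 and the 10xLCC arrays 6.00, 5.94 and 5.91, a rise of 0.81 ± 0.13 (adjusted p = 0.0027), or 1.75-fold. Control and treated arrays did not overlap there.

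Other H2B genes rose mainly in Karpas422 and SU-DHL6. H2BC5 rose by 1.18 ± 0.12 in Karpas422 at day 6, from 9.60, 9.43 and 9.47 to 10.78, 10.52 and 10.75, and by 0.40 ± 0.12 in SU-DHL6. A second probe set of this gene moved further, by 2.40 in Karpas422, 1.85 in SU-DHL6, 1.0 in WSU-DLCL2 and 0.51 in Pfeiffer, so the size of the H2BC5 change depends on the probe set. H2BC6 rose by 1.15 ± 0.19 in Karpas422 and 0.67 ± 0.12 in SU-DHL6, and H2BC9 rose by 1.20 ± 0.19, 0.59 ± 0.15 and 0.59 ± 0.12 in Karpas422, SU-DHL6 and WSU-DLCL2. H2BC5, H2BC6 and H2BC9 were all read by probe sets ending in _x_at, which other H2B transcripts may also bind. H2BC14 went the other way in WSU-DLCL2, by -0.57 ± 0.12, -0.78 ± 0.12 and -0.58 ± 0.12 at days 2, 4 and 6. Across the 13 H2B genes, 6 rose and 0 fell in Karpas422 at day 6, and the counts were the same in SU-DHL6. Over all genes 18.4% rose and 19.2% fell in Karpas422, and 19.8% and 26.7% in SU-DHL6. With the ACTB ratio in the model the SU-DHL6 calls of H2BC4, H2BC5, H2BC9 and H2BC21 were lost.

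**Figure D2:**
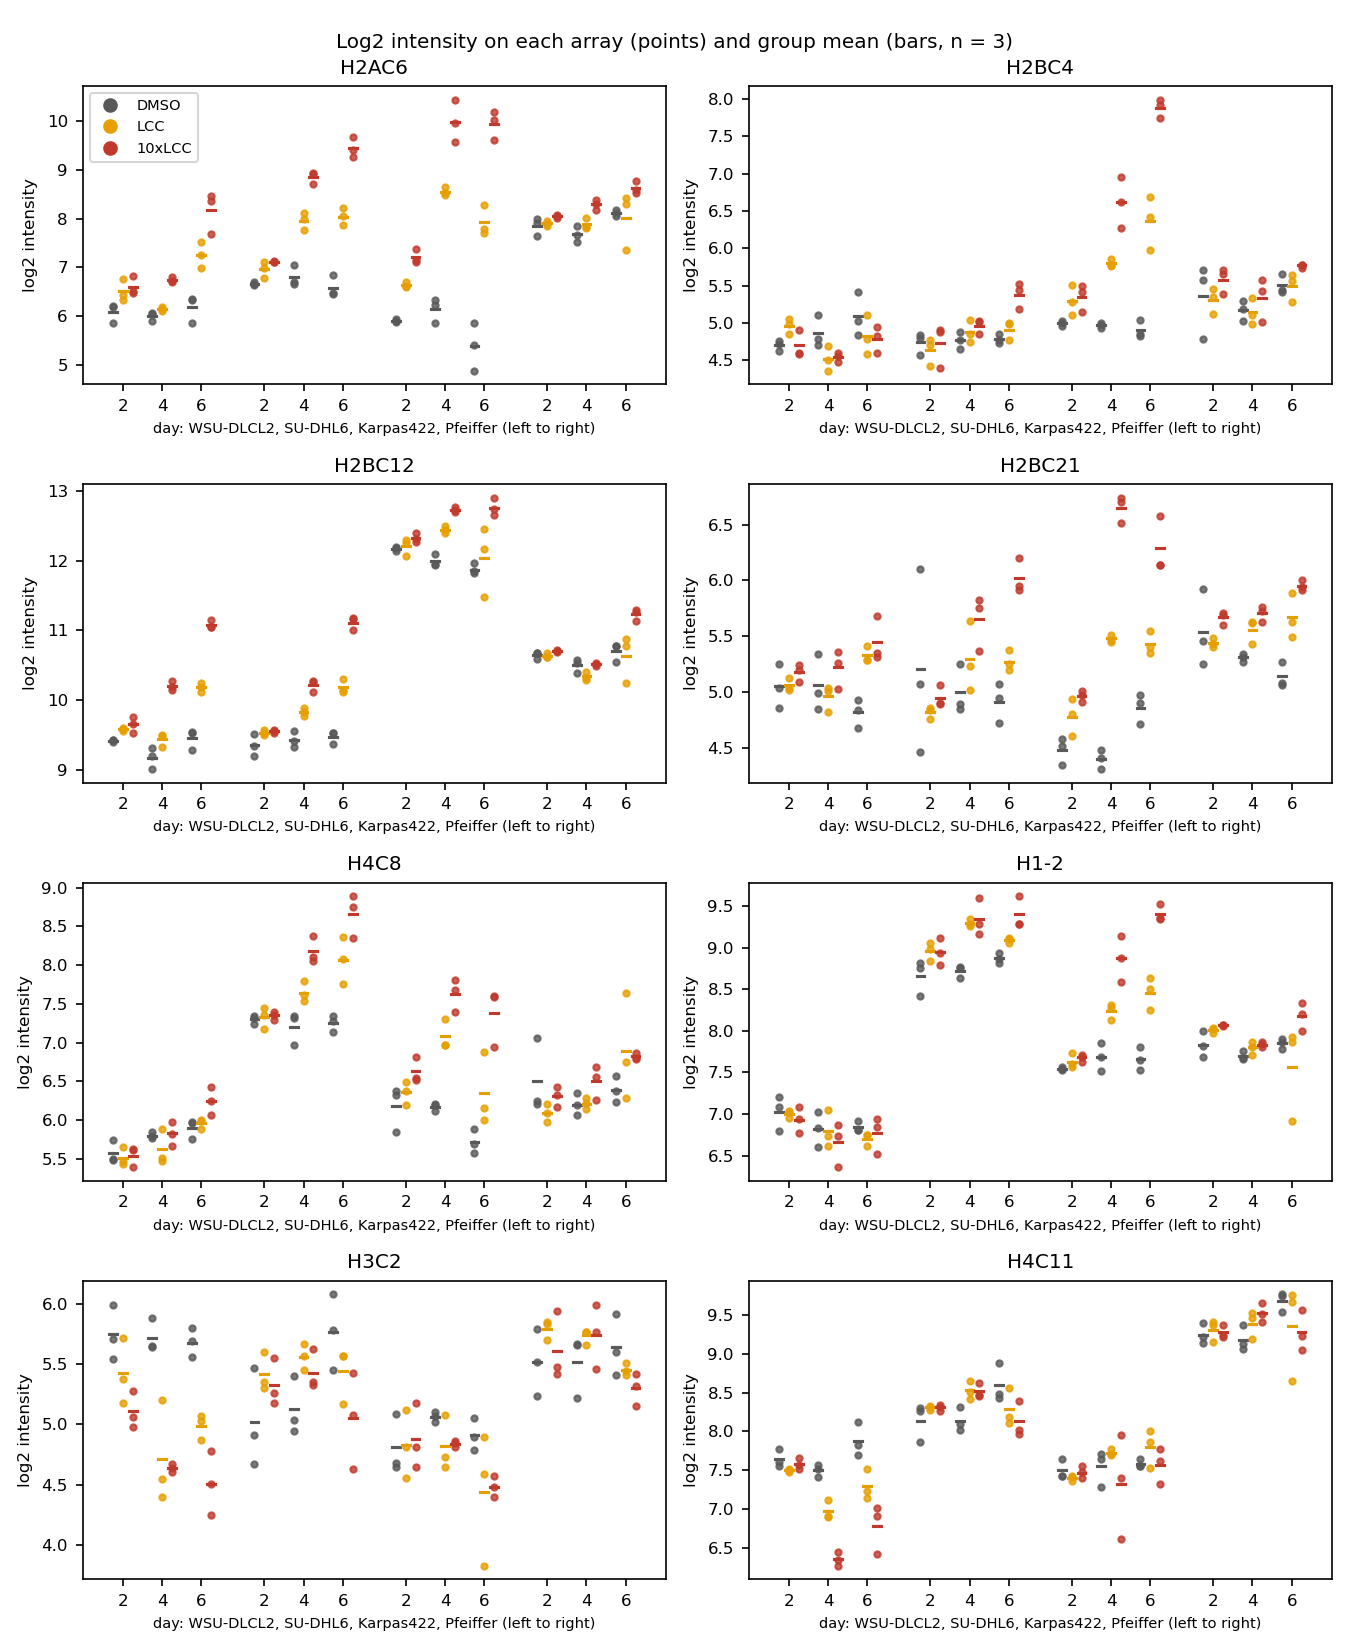
Log2 intensity of 8 members on every array (points, coloured by dose) and the mean of each group of 3 (bars), by cell line from left to right and day within each line. H2AC6 climbs with dose in the 3 Y641 lines and stays between 7.35 and 8.77 in Pfeiffer, while H3C2 and H4C11 lie lower at both doses than in DMSO in WSU-DLCL2 at days 4 and 6.

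The other H2A genes split. H2AC15 rose by 1.81 ± 0.13 in Karpas422 at day 6, from 5.32, 5.46 and 5.5 to 7.06, 7.15 and 7.49, and by 1.02 ± 0.12 in SU-DHL6. Its second, dimmer probe set gave 0.24 and -0.05 for the same differences, so the 2 probe sets disagree. H2AC25 (chr1:228457364-228457873) rose in SU-DHL6 by 1.13 ± 0.15 at day 6, from 7.43, 7.57 and 7.42 to 8.42, 8.60 and 8.78. Its second probe set differed by -0.24 there. H2AC8 rose in Karpas422 and SU-DHL6 at days 4 and 6 but fell by 0.55 ± 0.17 in WSU-DLCL2 at day 4, a call lost on centring or without WSU-DLCL2 DMSO day 4 replicate A (adjusted p = 0.065 and 0.14). H2AC16 fell by 0.71 ± 0.15 in SU-DHL6 and 0.42 ± 0.14 in WSU-DLCL2 at day 6. The WSU-DLCL2 call was lost on centring (adjusted p = 0.12) and without WSU-DLCL2 10xLCC day 6 replicate B (0.10). In SU-DHL6 the ACTB ratio in the model took its adjusted p to 0.49.

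Among the linker histones, which bind the DNA between nucleosomes, H1-2 and H1-10 stood out. H1-2 (chr6:26055740-26056470) rose by 1.75 ± 0.12 in Karpas422 at day 6, from 7.80, 7.65 and 7.53 to 9.35, 9.52 and 9.36 (adjusted p = 3.1e-12). It rose in SU-DHL6 by 0.53 ± 0.12 at day 6 and 0.63 ± 0.12 at day 4, and in WSU-DLCL2 the day 6 arrays of 6.81, 6.92 and 6.81 in DMSO overlapped 6.84, 6.94 and 6.52 at 10xLCC. H1-10, a linker histone made outside S phase and located away from the clusters at chr3:129314771-129316286, rose in SU-DHL6 by 1.93 ± 0.23 at day 6, from 6.81, 6.83 and 6.99 to 8.73, 8.83 and 8.85 (adjusted p = 9.1e-08). In WSU-DLCL2 it fell by 0.80 ± 0.09 at day 4, from 11.30, 11.24 and 11.09 to 10.51, 10.52 and 10.21 (adjusted p = 4.9e-08). Under DMSO in that line it also fell by 0.98 ± 0.09 between days 2 and 6, and at day 6 its 10xLCC change was not called. H1-6, a testis linker histone, rose by 0.74 ± 0.07 in Karpas422 at day 6 alone, and its second probe set gave 0.77. H1-5 fell in WSU-DLCL2 and SU-DHL6 at day 6, by 0.47 ± 0.13 and 0.46 ± 0.16. The SU-DHL6 value was 0.005 with the ACTB ratio in the model, and both calls were lost on centring (adjusted p = 0.20 in SU-DHL6 and 0.10 in WSU-DLCL2).

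At 10xLCC the H3 genes that changed all fell. Of the 7, 1 fell in Karpas422, 4 in SU-DHL6 and 3 in WSU-DLCL2 at day 6, and 0 rose in these lines. Over all genes 19.2%, 26.7% and 19.2% fell and 18.4%, 19.8% and 17% rose, in that order. With the ACTB ratio in the model 0 members of any class fell in SU-DHL6, so none of the 4 H3 calls there was kept. H3C2 (chr6:26031589-26032099) in WSU-DLCL2 read 5.8, 5.69 and 5.56 in DMSO, 4.87, 5.03 and 5.07 at LCC and 4.51, 4.25 and 4.78 at 10xLCC, which is 3 separate groups. It fell by 1.17 ± 0.17 (adjusted p = 2.6e-06), after falls of 0.64 ± 0.17 at day 2 and 1.08 ± 0.17 at day 4. In SU-DHL6 it fell by 0.72 ± 0.20 at day 6, with an adjusted p of 0.056 once the ACTB ratio was in the model. H3C11 fell by 0.52 ± 0.14, 0.62 ± 0.13 and 0.62 ± 0.13 at day 6 in WSU-DLCL2, SU-DHL6 and Karpas422. H3C7 fell by 1.04 ± 0.15 in WSU-DLCL2, to 3.94, 3.92 and 4.32 at 10xLCC, values around the log2 4 used as the filter on dim genes.

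H4 genes did both. H4C8 (chr6:26285126-26285534) rose by 1.66 ± 0.19 in Karpas422 at day 6, from 5.89, 5.69 and 5.58 to 7.59, 6.94 and 7.60, by 1.41 ± 0.14 in SU-DHL6 and by 0.35 ± 0.11 in WSU-DLCL2. Its second probe set moved by 0.66, 0.95 and -0.20, so the WSU-DLCL2 rise does not hold in both, and the mean of the 2 gave 0.08 (adjusted p = 0.60). The call was also lost without WSU-DLCL2 DMSO day 6 replicate A (0.10) or 10xLCC day 6 replicate B (0.11). H4C11 (chr6:27824092-27824480) in WSU-DLCL2 read 8.12, 7.82 and 7.70 in DMSO and 6.91, 6.42 and 7.01 at 10xLCC of day 6, a fall of 1.10 ± 0.12 (adjusted p = 7.8e-08). It had fallen by 1.15 ± 0.12 at day 4, and the groups did not overlap on either day. H4C4 fell by 0.83 ± 0.12 in WSU-DLCL2 and rose by 0.53 ± 0.14 in Karpas422. A total of 12 members were called in no line at any day of 10xLCC, namely H1-1, H1-7, H2AC17, H2BC1, H2BC3, H2BC13, H2BC15, H2BC17, H3C1, H3C6, H4C7 and H4C9.

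**Figure D3:**
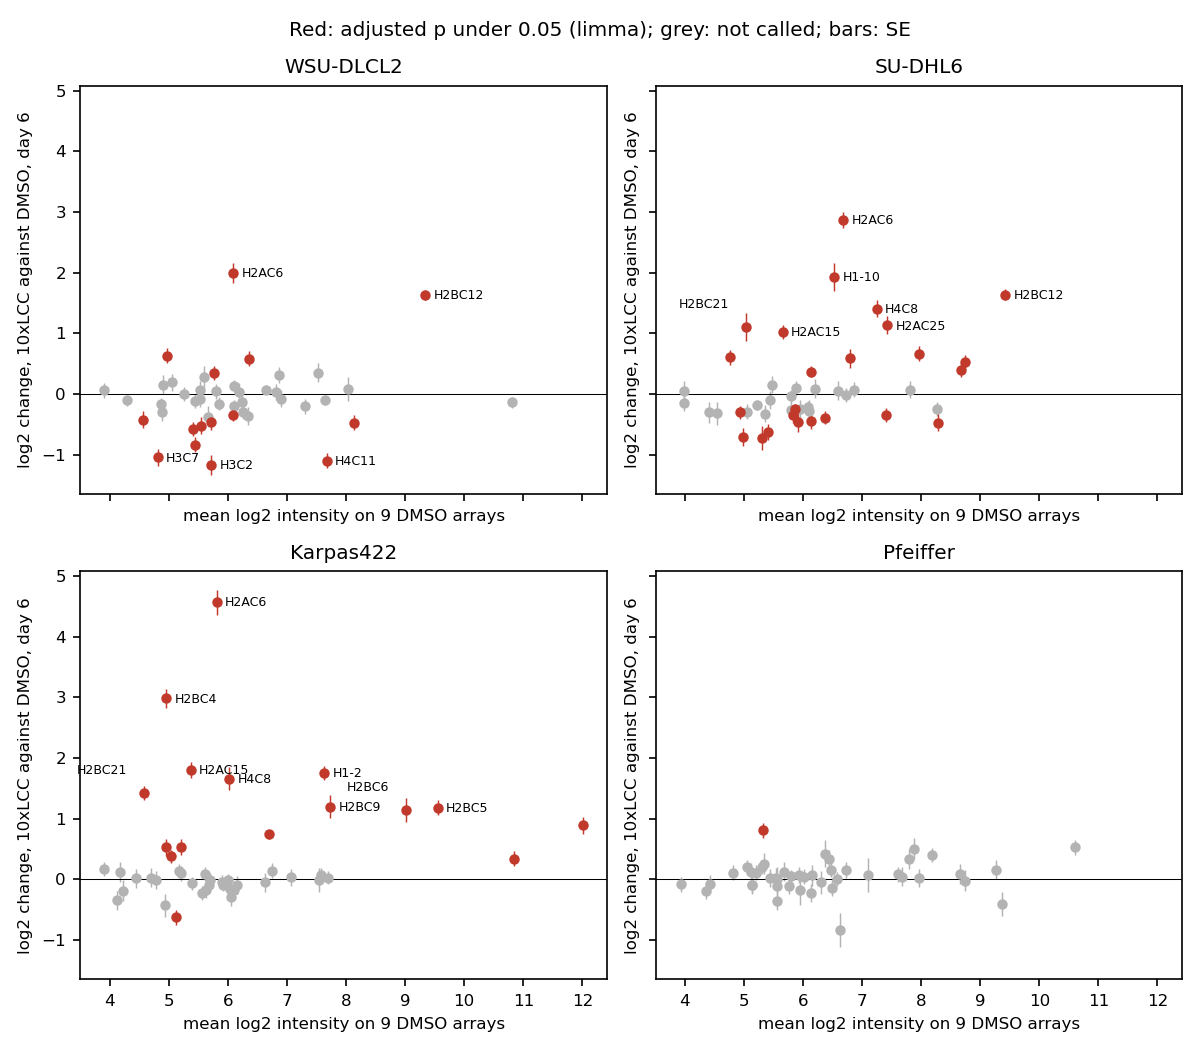
Change at day 6 of 10xLCC against DMSO (log2, bars are SE) plotted against the mean log2 intensity of each member on the 9 DMSO arrays of its line; red points passed limma's adjusted p of 0.05. Risen genes in Karpas422 span DMSO levels from 4.58 (H2BC21) to 12.01 (H2BC12), and Pfeiffer has 1 red point; level and change share the DMSO arrays of day 6.

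Fewer members were called at LCC than at 10xLCC on days 4 and 6 in each Y641 line. On day 4 of LCC, 10 rose and 0 fell in Karpas422, against 5.9% and 2.98% of all genes. SU-DHL6 had 6 and 0, against 5.8% and 2.61%, and WSU-DLCL2 1 and 7, against 16.2% and 12.6%. An unadjusted p below 0.05 was found that day for 12 members in Karpas422, beside 3657 of 18873 genes. In SU-DHL6 it was found for 18, beside 3842 of 18895. At LCC on day 6, 12 members rose and 0 fell in Karpas422, against 11.7% and 14.6% of all genes. There 14 members had an unadjusted p below 0.05, beside 6614 of 18873 genes. SU-DHL6 had 5 risen and 3 fallen, against 10.2% and 7.69%. Without SU-DHL6 DMSO day 2 replicate A, which enters the fit through its spread, that line had 12 and 0 at day 4, against 8.5% and 5.21%, and 8 and 5 at day 6, against 13.4% and 11.7%. WSU-DLCL2 had 3 risen and 10 fallen, against 16.6% and 11.2%. In Pfeiffer limma called 0 members and 0% of all genes at LCC on any day. An unadjusted p below 0.05 was found there for 3, 2 and 6 of 45 members on days 2, 4 and 6. Over all 18935 genes tested, 543, 645 and 2364 had one. Between the doses at day 6, 11 members were higher at 10xLCC than at LCC and 3 lower in Karpas422, against 9.57% and 8.64%. The counts were 11 and 1 in SU-DHL6, against 11.7% and 15.6%, and 4 and 3 in WSU-DLCL2, against 3.94% and 9.07%. H2AC6 differed between the doses by 2.02 ± 0.20, 1.41 ± 0.13 and 0.92 ± 0.17 in Karpas422, SU-DHL6 and WSU-DLCL2, and H2BC12 by 0.73 ± 0.14, 0.93 ± 0.09 and 0.90 ± 0.08. H2BC5 fell by 1.04 ± 0.20 in WSU-DLCL2 at LCC on day 4, where the arrays read 7.32, 6.41 and 6.61 against 7.93, 7.78 and 7.74 in DMSO.

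To follow the members over time, the 10xLCC change at day 6 was set against that at day 2. It was higher at day 6 for 12 members in Karpas422 and lower for 1, against 9.68% and 10.2% of all genes. In SU-DHL6 the counts were 8 and 10, against 10.3% and 21.1%, or 11 and 8 without SU-DHL6 DMSO day 2 replicate A, against 14.4% and 18.7%. WSU-DLCL2 had 3 and 3, against 7.46% and 6.4%. For Pfeiffer limma called 0 members and 0% of all genes. There 3 of 45 members had an unadjusted p below 0.05, beside 445 of 18935 genes. H2AC6 gained 3.27 between the days in Karpas422, 2.42 in SU-DHL6 and 1.47 in WSU-DLCL2. Under DMSO alone, 2 members rose and 4 fell between days 2 and 6 in Karpas422, against 15.1% and 16.3% of all genes. SU-DHL6 had 2 risen and 0 fallen, against 2.96% and 0.582%, and both calls were lost without SU-DHL6 DMSO day 2 replicate A, where the shares were 1.13% and 1.87%. The fall of H1-10 was the 1 change in WSU-DLCL2, where 3.65% of all genes rose and 8.44% fell.

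Differences between lines were tested in 1 model over the arrays of all 4 lines. Effects were compared with their sign, so a larger effect is a more positive log2 change and a smaller one a more negative. At day 6 the 10xLCC effect in Pfeiffer was smaller than the mean effect of the Y641 lines for 9 of the 44 members tested and larger for 0, against 12% and 15.2% of all genes. H2AC6 differed most, by -2.64 ± 0.21 (SE; adjusted p = 1.6e-18), followed by H2BC12 at -0.86 ± 0.13 (adjusted p = 4.2e-08) and H2BC4 at -0.83 ± 0.18 (adjusted p = 0.00013). For H2BC21 the difference was -0.25 ± 0.19 and missed the threshold (adjusted p = 0.41). Without replicate C of every group, the 9 became 5, against 8.51% of all genes. At day 4 the comparison gave 4 larger and 5 smaller members, against 7.86% and 7.85%.

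Karpas422 was set against the other Y641 lines at day 4, when the ACTB ratio lay between -0.12 and 0.07 in it. Its 10xLCC effect, taken with its sign, was larger for 13 of 44 members and smaller for 1, against 5.94% and 11.4% of all genes. The 13 include H2BC14, which changed by 0.16 in Karpas422, beside -0.78 in WSU-DLCL2 and -0.38 in SU-DHL6. The differences reached 2.46 ± 0.22 for H2AC6 (adjusted p = 1.5e-15), 1.84 ± 0.20 for H2BC21 (adjusted p = 5.8e-12), 1.71 ± 0.19 for H2BC4 (adjusted p = 1.4e-11) and 1.41 ± 0.20 for H2BC5 (adjusted p = 1.8e-08). The count of 14 became 9 larger and 0 smaller without replicate C of every group, against 4.54% and 4.63%. With the filter at log2 6 it became 7 and 0 of 22 tested, against 7.21% and 14.7%. H2BC12 had no called difference at day 4, and at day 6 its effect was smaller in Karpas422 by 0.75 ± 0.13 (adjusted p = 4.7e-06).

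In DMSO the lines already differed in these genes. Averaged over the days, 20 members were higher in Pfeiffer than in the mean of the other lines and 5 lower, against 27% and 28.3% of all genes. Karpas422 was higher for 6 and lower for 21, against 28.7% and 29.5%. SU-DHL6 was higher for 15 and lower for 8, against 26.4% and 27.2%, and WSU-DLCL2 for 6 and 15, against 21.5% and 27%. H1-10 differed the most between lines, with means over 9 arrays of 10.81 ± 0.53 in WSU-DLCL2 and 10.84 ± 0.30 in Karpas422 but 6.53 ± 0.56 in SU-DHL6 and 7.10 ± 0.37 in Pfeiffer (SD). H2BC12 ran from 9.34 ± 0.17 in WSU-DLCL2 and 9.42 ± 0.12 in SU-DHL6 through 10.61 ± 0.13 in Pfeiffer to 12.01 ± 0.14 in Karpas422. H3C7 stood at 6.62 ± 0.46 in Pfeiffer and from 4.17 to 4.81 in the others. H2AC6 was lowest in Karpas422 at 5.81 ± 0.44 and highest in Pfeiffer at 7.88 ± 0.23, with WSU-DLCL2 at 6.09 and SU-DHL6 at 6.68 between them.

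Lists of genes that work beside the histones were read in the same arrays. Of 20 S phase genes, which copy DNA, all 20 fell in WSU-DLCL2 and in Karpas422 at day 6, and 19 did in SU-DHL6. Their median changes were -1.40, -1.87 and -0.81, and 0 rose in these lines. CDC6, a loader of the replicative helicase, fell by 2.27 in Karpas422, and MCM6, a helicase subunit, by 1.93. In Pfeiffer their median change was -0.10. Of 22 histone chaperones, which carry and deposit histones, 17, 18 and 16 fell in the same order of lines. NASP, a chaperone of H3 and H4, fell by 1.30 in Karpas422 and 1.09 in WSU-DLCL2, and CHAF1A, a subunit of the replication-coupled assembly factor, by 1.44 and 1.29. With the ACTB ratio in the model, the SU-DHL6 counts became 11 fallen S phase genes and 4 fallen chaperones. The S phase genes' part in the histone changes was not tested.

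Genes for transcription and processing of histone mRNA also changed mainly downward, with 10 falls among the 19 tested in WSU-DLCL2 at day 6, 13 in Karpas422 and 15 in SU-DHL6, and 1, 2 and 3 rises. The 15 in SU-DHL6 became 3 with the ACTB ratio in the model, SLBP and CCNE2 among them. SLBP, the stem-loop binding protein, fell by 1.0 ± 0.07 in WSU-DLCL2 and 0.87 ± 0.08 in SU-DHL6. CCNE2, a cyclin of S phase entry, fell by 2.00, 1.30 and 1.55 in WSU-DLCL2, SU-DHL6 and Karpas422. Of a list of 14 histone variants and other histone genes outside the naming rule, 8 were tested. Karpas422 had 6 fallen and 1 risen, WSU-DLCL2 had 5 and 0, and SU-DHL6 had 3 and 1, with medians of -0.59, -0.62 and -0.05. The SU-DHL6 median was 0.12 on centring, and the ACTB ratio in the model left 2 falls and 0 rises there. CENPA, the centromeric H3 variant, which is made mainly late in the cycle, fell by 0.93, 1.25 and 1.31 in the same order. H2AJ, an H2A variant, rose by 0.45 in SU-DHL6 and 0.48 in Karpas422.

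Of the 6 members listed as also giving polyadenylated mRNA, all 6 rose at day 6 in Karpas422 and in SU-DHL6, 3 rose in WSU-DLCL2, and 0 fell in these lines. Their medians were 1.59, 0.86 and 0.36, beside 0.04, -0.10 and -0.10 over all members. Over all genes 18.4%, 19.8% and 17% rose and 19.2%, 26.7% and 19.2% fell, in the same order of lines. The list was drawn up with results of these data known, so its direction is no independent evidence. With the ACTB ratio in the model, the 6 of SU-DHL6 became 2, H2AC6 and H2BC12, while Karpas422 kept all 6. In that model 5.95% of all genes rose in SU-DHL6 and 18.5% in Karpas422.

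**Figure D4:**
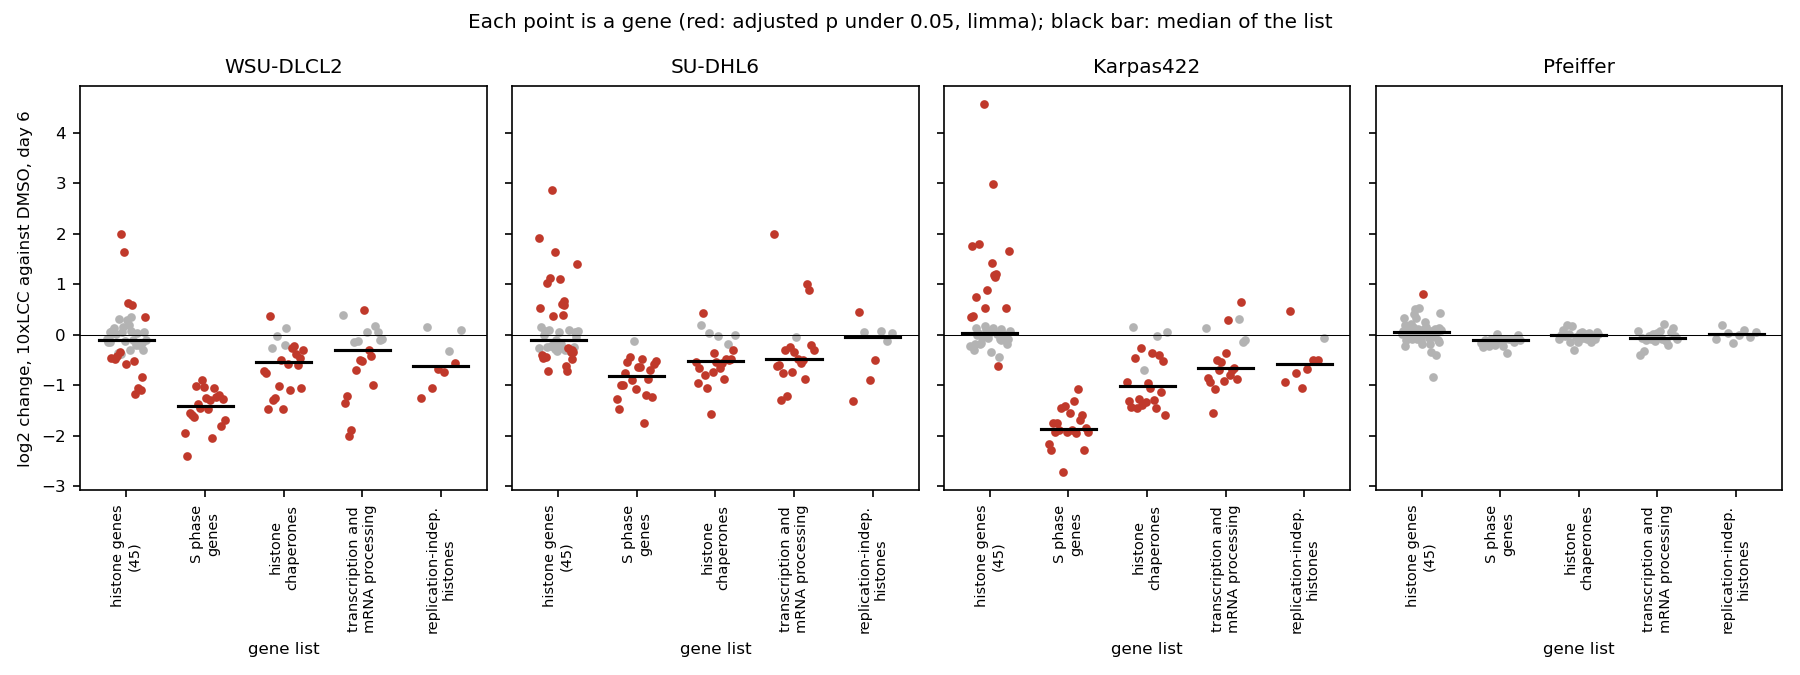
Log2 change at day 6 of 10xLCC against DMSO for every gene (points) of the 45 members and 4 related gene lists in each cell line; red points passed limma's adjusted p of 0.05 and the black bar is the list median. The S phase genes lie below 0 in the 3 Y641 lines, with medians of -1.40, -0.81 and -1.87, while the histone members spread to both sides.

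The length of the annotated gene, which played no part in choosing the members, can be set beside their changes. Gene models longer than 1000 bases were annotated for 8 members, among them H2BC5 at 13229 bases, H2BC4 at 10757 and H2BC12 at 8566. Of these 8, 5 rose in Karpas422, 5 in SU-DHL6 and 2 in WSU-DLCL2 at day 6, against 10 of 37, 8 of 37 and 3 of 36 of the shorter ones. Over all genes 18.4%, 19.8% and 17% rose. The 5 were H1-10, H2BC4, H2BC5, H2BC12 and H2BC21 in both lines. All but H1-10 are on the polyadenylated list above, so this split is not independent of that list. The SU-DHL6 calls of H2BC4, H2BC5 and H2BC21 were lost with the ACTB ratio in the model. H1-8, with 8293 bases, fell in SU-DHL6 by 0.45.

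The octamer was found in 16 of the 43 members with a RefSeq start region, or 37.2%, and in 1.8% of all 27305 start regions. It lay in 6 of 8 H2A and 10 of 13 H2B regions and in 0 of the H1, H3 and H4 regions. Of the 12 members that rose in at least 2 lines at day 6, 7 held it, and of the 4 with a sequence that fell in at least 2 lines, 1 did. Since only H2A and H2B regions hold the octamer, these counts cannot be told apart from histone class. Within the 2 classes, the risen H2AC15 and H2BC5 lacked it, and H2AC16, the only H2A or H2B gene among the fallen 4, held it. CCAAT stood in 37 of the 43, or 86.0%, and in 35.7% of all regions, and TATAAA in 28, or 65.1%, against 12%. H4C8, printed above, held none of the 3, and H3C2 held CCAAT and TATAAA. These counts describe letters in a window and name no bound factor.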

How the data were processed

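Total RNA of the 4 lines had been copied and labelled in a single round of in vitro transcription for 1-colour arrays, per the labels' protocols. The authors deposited 1 linear intensity per probe set and array, made with GCRMA per the submitters' processing notes (version and settings not stated there), and no raw scanner values were used here. Background correction and between-array normalisation were thus done upstream, the number of arrays limits the precision, and deposited intensities ran from 5.79 to 31846. No 2 arrays were identical.

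From these, log2 was taken with a pseudocount of 0. Of 54675 probe sets, 41097 named 1 gene in the platform annotation, 1801 named several and 11777 none. The brightest probe set stood for each gene. Genes with log2 of at least 4 on 3 arrays were tested with limma 3.58.1 in R 4.3.3, in 1 model per line over its 9 groups and 27 arrays. Differences between lines came from 1 model over the arrays of all 4 lines. Calls were made at 0.05 after Benjamini-Hochberg adjustment across every gene tested. The exact permutation test of 3 against 3 arrays cannot go below p = 0.1 and was not used. On simulated arrays, 99%, 97.5%, 97.5% and 91.5% of 200 changed genes were recovered for the day 6 contrast of 10xLCC in WSU-DLCL2 (18842 genes), SU-DHL6 (18895), Karpas422 (18873) and Pfeiffer (18935), in that order. False calls made up 4.81%, 5.8%, 4.88% and 3.68% of the calls. Each of the 200 was changed by 1 (log2), so recovery of smaller changes was not tested. Many more genes than 200 were called in the Y641 lines of the data.

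The members and the lists were chosen with earlier results of these data known. Named with values were up to 5 called members each way per line at days 4 and 6, up to 6 each way called in most lines, the 3 brightest and the 3 most variable between lines in DMSO, the 6 listed as polyadenylated, and H1-10. In each list up to 4 genes with the smallest p were eligible. H1-6, H1-8, H2BC6, H2BC15 and the names behind small counts were added after their values were seen. Alternatives covered the filter, the probe set rule, centring on the median of genes at log2 8 or more, the pseudocount, limma's variance settings, the replicate letter as a block, the ACTB ratio as a covariate, the 2 groups alone and arrays left out. Sequences and gene positions are RefSeq's on GRCh38.p14, and probe positions were not used.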

Additional observations from a re-analysis of the deposited data

Results flagged for a closer look

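Among the 21 members named by rule, 11 differed in the 10xLCC effect at day 4 between Karpas422 and the mean of the other Y641 lines. The contrast came from the model of all 4 lines, where 5.94% of all genes had a larger effect in Karpas422 and 11.4% a smaller one. Members were named partly for the size of their change at day 4 in these lines, so the count of 11 is no independent evidence. The effect was higher in Karpas422 for each (differences in log2, SE). H2AC6 led at 2.46 ± 0.22, with H2BC21 at 1.84 ± 0.20, H2BC4 at 1.71 ± 0.19 and H2BC5 at 1.41 ± 0.20. H4C8 differed by 0.96 ± 0.22 and the linker histone H1-2 by 0.95 ± 0.17. Smaller differences were found for H2BC9 at 0.80 ± 0.20, H2BC14 at 0.74 ± 0.17, H2AC15 at 0.71 ± 0.15, H2AC8 at 0.66 ± 0.17 and H2AC14 at 0.61 ± 0.17. H2BC14 was not called in Karpas422 itself at day 4, where it changed by 0.16, beside -0.78 in WSU-DLCL2 and -0.38 in SU-DHL6. The adjusted p-values of the 11 differences ran from 1.5e-15 for H2AC6 to 0.0048 for H2AC14. Those of H2AC8, H2AC14 and H2BC14 were 0.25, 0.15 and 0.085 without replicate C of every group, and those of H2BC9 and H2AC14 were 0.26 and 0.18 without replicate B.

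For 8 of the 21 the effect at day 6 differed between Pfeiffer and the mean of the Y641 lines, and it was smaller in Pfeiffer for each. Over all genes the effect was smaller in Pfeiffer for 12% and larger for 15.2%. Members were also named for their change at day 6 in single lines, so this count is no independent evidence either. H2AC6 differed by -2.64 ± 0.21, H2BC12 by -0.86 ± 0.13, H2BC4 by -0.83 ± 0.18 and H2BC9 by -0.77 ± 0.19. H2AC15 differed by -0.73 ± 0.14, H4C8 by -0.71 ± 0.21, H1-10 by -0.63 ± 0.24 and H1-2 by -0.40 ± 0.16. The last 2 had adjusted p-values of 0.042 and 0.049, and without replicate A of every group both were 0.39. The ACTB ratio of Karpas422 at day 6, between 1.02 and 3.56, enters this contrast, and its part in it was not tested beyond the model with the ratio as a covariate, where 11 members were called against 9.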

How the results depend on the processing

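The count of called members kept within 1.5 times its value under most alternatives. Where no share of all genes stands beside a count, it does not show whether calls over all genes moved alike. Raising the filter to log2 6 left 5 called in WSU-DLCL2 at day 4, 8 at day 6 and 7 for Karpas422 against the other Y641 lines, with 24, 24 and 22 members tested. The ACTB ratio as a covariate left 5 in SU-DHL6 at day 6 and turned H1-5 there to 0.005. For Pfeiffer at day 4, centring gave 2 and the 2 groups alone 1. For Pfeiffer at day 6, centring gave 4, and the mean of probe sets, a pseudocount of 16 and limma's trended robust variances gave 2 each. The cause was not tested.

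Leaving out arrays gave ranges of 12 to 15 called members in Karpas422 at day 4 and 15 to 17 at day 6. SU-DHL6 gave 8 to 14 and 20 to 29, Pfeiffer 0 to 3 and 1 to 5, and WSU-DLCL2 8 to 10 and 12 to 17 for the same days. Calls over all genes moved too. At day 6 in SU-DHL6, 21.8% of all genes rose and 31.1% fell without SU-DHL6 DMSO day 2 replicate A. With every array those shares were 19.8% and 26.7%. The highest Pfeiffer values came without Pfeiffer LCC day 6 replicate B, when 2.08% of all genes rose at day 4 and 1.8% at day 6. That omission, and those of the array farthest from its group in each other line, were chosen after seeing the data. The range was 5 to 10 for Pfeiffer against the Y641 lines and 9 to 12 for Karpas422 against the others, with the lowest of each without replicate C.

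Same-lettered arrays did not deviate together in every pair of any line (correlations from -0.33 to 0.45). So few pairs cannot show whether the letters mark a shared culture or batch. With the replicate block, Karpas422 had 13 called members at day 4 and 16 at day 6, SU-DHL6 had 10 and 24, Pfeiffer 0 and 1, and WSU-DLCL2 8 and 15. The comparisons between lines had 8 for Pfeiffer and 14 for Karpas422. Of 94 called results of named members, 64 kept their call under every alternative run and 30 lost it under at least 1, of which 1 reversed. Of the 45 members, 24 had a mean below log2 6, and the filter at that level tested 22 to 28 of them.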
